A study of Homo sapiens with 4 samples.

Results

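LNCaP, derived from a lymph node metastasis, and PC-3, derived from a bone metastasis, are established human prostate cancer cell lines, each from a single patient, and the comparison described here is between engineered tissues made from either line without added fibroblasts. In these tissues the cells were grown inside a poly(ethylene glycol)-fibrinogen hydrogel and RNA was taken at day 15. The sample titles call the LNCaP monoculture ADPC and the PC-3 monoculture CRPC-ne, and the series title speaks of androgen-dependent and castration-resistant progression, while the suffix "ne" is not explained. No treatment was listed. The 1 growth protocol given for all libraries is written for PC-3 tissues, kept in F-12K medium with fetal bovine serum, and describes a gel tuned at several stiffness settings without tying a setting to a library. A separate medium or gel setting for LNCaP was not given in the sources used here, so such a difference cannot be told apart from the line. RNA came from more than 2 tissues, and whether a library pools them was not stated. Members of the comparison were the genes with at least 1 CPM (a gene's counts over the library total, times 1000000) in 1 of the 2 monoculture libraries, which gave 15160 of the 17791 genes in the table. Tissues of LNCaP or PC-3 cells seeded 5 to 1 with BJ-5ta fibroblasts, an immortalised line of normal human fibroblasts, gave 2 further libraries that serve here as another pair of the same lines.

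There was 1 library per group, so each difference is between libraries, no test of the lines was possible, and every interval below is a 95% interval for counting error only. The libraries held 15865690 estimated counts for PC-3 and 15860981 for LNCaP, and a count of 0 in either allows up to 3 counts, or 0.189 CPM. Where a library had 0, the fold against 3 counts is printed as a lower bound ("at least"). Coordinates follow RefSeq on GRCh38.p14 and are 1-based. In bulk tissue fewer cells with a transcript and less of it per cell cannot be told apart.

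LNCaP cells are known to depend on androgens, hormones that turn on luminal prostate genes such as those of the kallikrein proteases. PC-3 cells are known for growing without androgens and for a motile, invasive phenotype. Luminal prostate epithelium rests on basal cells, which hold the tissue to its basement membrane through integrins and laminins.

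The lines differed at close to as many genes in either direction, but the extreme differences were more often on the PC-3 side. Of the 15160 genes, 3354 (22.1%) were at least 2-fold higher in LNCaP, 3578 (23.6%) at least 2-fold higher in PC-3 and 8228 (54.3%) lay within 2-fold, with a median log2 fold of 0.04 (LNCaP over PC-3, as for every log2 fold here). At 10-fold or more there were 726 genes on the LNCaP side and 1373 on the PC-3 side. PC-3 had 3 counts or fewer for 604 of the LNCaP-higher genes, and LNCaP had 3 or fewer for 987 of the PC-3-higher genes. Among the 7222 genes with at least 20 CPM in each library, the numbers at 2-fold were 889 and 855. The shares of 22.1% and 23.6% are the background for each gene list below, and "higher" in a list count means at least 2-fold.

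**Figure D1:**
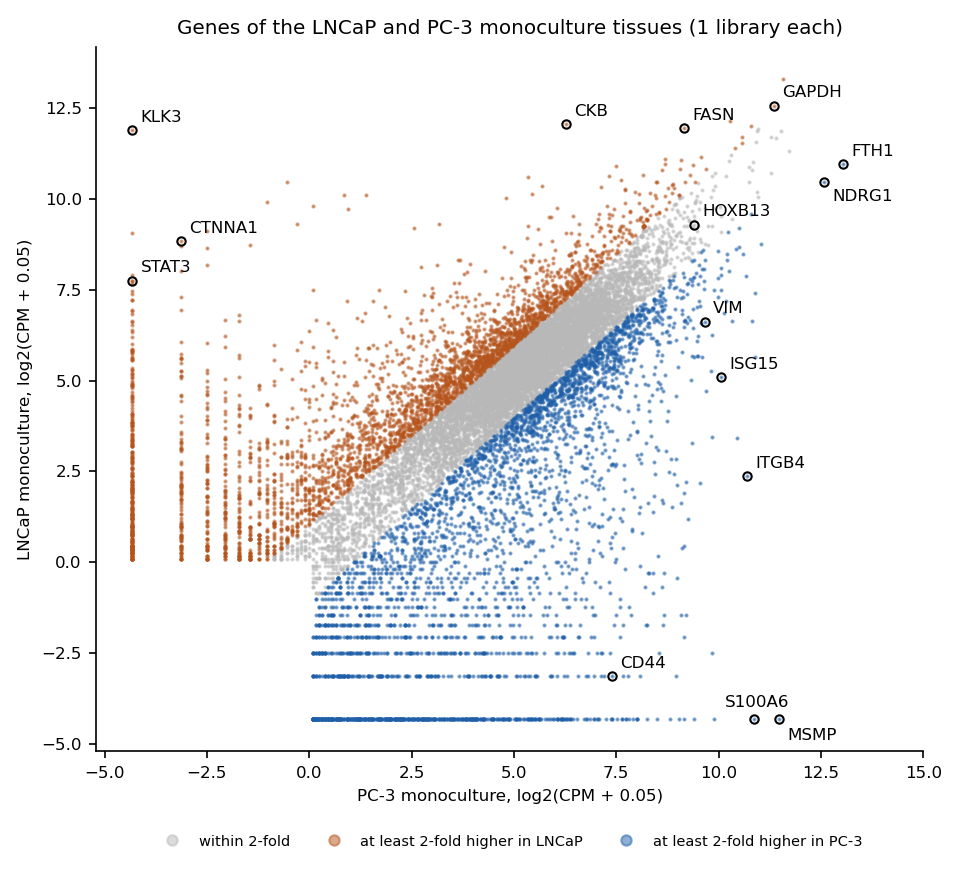
Each point is a counted gene, with its level in the PC-3 monoculture on the x axis and in the LNCaP monoculture on the y axis, both as log2(CPM + 0.05), 1 library each. The vertical line of points at the left and the horizontal line at the bottom are genes at 0 in PC-3 or LNCaP, with KLK3 and STAT3 on the former and S100A6 and MSMP on the latter, while HOXB13 lies on the diagonal.

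Androgen-regulated genes were mostly higher in LNCaP. Of 29 measured, 20 were higher in LNCaP, 3 in PC-3 and 6 within 2-fold, with a median log2 fold of 3.04. The kallikrein proteases secreted by the prostate were nearly absent from PC-3. The gene of prostate-specific antigen, KLK3 (at chromosome 19, 50854915 to 50860764), reached 60226 counts in LNCaP against 0 in PC-3 and was at least 20294-fold higher in LNCaP. Its neighbours KLK2 and KLK4, also prostate proteases, had 8461 and 6663 counts in LNCaP against 0 and 1 in PC-3. The list was not uniform, and several androgen-regulated genes were well expressed in PC-3. The membrane protease gene TMPRSS2 had 21261 and 7309 counts, 2.94-fold (2.86 to 3.02) higher in LNCaP. SLC45A3, a transporter gene used as a prostate marker, had 5911 and 3853 counts and stayed within 2-fold, as did TPD52 with 5974 and 6188. The 3 members that went the other way are metabolic or stress genes. HPGD, which degrades prostaglandins, had 113 counts in LNCaP and 7219 in PC-3, 63.2-fold (52.5 to 76.8) higher in PC-3. NDRG1, a stress and hypoxia responsive gene, had 22374 and 97284, and STEAP4 had 8 and 32.

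Factors that act with steroid hormone receptors were expressed in either line. FOXA1, which opens chromatin at androgen-regulated genes, had 10569 and 6836 counts, and HOXB13, a prostate homeobox factor, had 10000 and 10668. Neither reached 2-fold. GATA2, a zinc finger factor of the prostate, was 5.37-fold (5.12 to 5.62) higher in LNCaP (11147 and 2100 counts). The glucocorticoid receptor gene NR3C1 ran the other way, with 11 counts in LNCaP and 755 in PC-3, 67.9-fold (37.7 to 137) higher in PC-3. Across the 16 measured steroid receptors and cofactors, 6 were higher in LNCaP and 3 in PC-3, the latter being NR3C1, the coactivator gene NCOA3 (612 and 2921 counts) and the oestrogen receptor gene ESR2 (6 and 43).

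The promoter of KLK3 is shown because, of 21 promoters of the androgen-regulated list, it was the 1 that held the short motif marked below. This gene also had the most counts among the androgen-regulated genes absent from PC-3. The 250 bases before the gene start (chr19:50854665-50854914, plus strand, RefSeq GRCh38.p14) are printed 5′ to 3′, with capitals on a match to TGTTCT or its complement AGAACA, the short form of the androgen response element.
KLK3: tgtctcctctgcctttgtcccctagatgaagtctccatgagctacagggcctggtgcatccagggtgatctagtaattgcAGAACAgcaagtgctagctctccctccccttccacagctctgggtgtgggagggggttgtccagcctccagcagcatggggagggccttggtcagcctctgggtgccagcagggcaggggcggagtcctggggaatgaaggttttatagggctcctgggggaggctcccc
The match begins 170 bases before the start. KLK3 was printed after its values were seen, because the full androgen response element set for this purpose had no match in the list. That element (AGNACA, any 3 bases, TGTNCT, either strand) was found in 0 of 21 promoters of the list. It was found in 0 of the 11649 counted genes with a promoter in the table. Only exact letters were searched, so an element that departs from them would not be found. After AGAACA the KLK3 promoter reads gca and then agtgct, which departs from TGTNCT at its first letter. The 6-base motif was in 1 promoter of the list. It was in 8.33% of promoters of LNCaP-higher genes, 7.77% of those of PC-3-higher genes and 7.51% of all counted ones.

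Genes that make or clear androgens went both ways. The UGT2B glucuronidases, which tag androgens for removal, were on the LNCaP side. UGT2B17 had 2645 counts in LNCaP and 0 in PC-3 (at least 891-fold higher), UGT2B15 had 826 and 4, and UGT2B11 had 213 and 0. These are near-identical copies between which reads can be misassigned, so their separate values are uncertain. The aldo-keto reductase AKR1C3, which makes testosterone from a weaker precursor, was 6.11-fold (4.45 to 8.57) higher in PC-3 (45 and 278 counts), though it too has close copies. HSD17B2, which runs that step in reverse, had 1 count in LNCaP and 254 in PC-3, 251-fold (44.7 to 9963) higher in PC-3. In all 7 of 14 measured members were higher in LNCaP and 6 in PC-3. The 5-alpha reductase gene SRD5A1 was higher in LNCaP (794 and 336 counts) and SRD5A3 in PC-3 (1294 and 3179).

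Surface antigens used to target prostate tumours also fell into opposite sets. FOLH1, which encodes prostate-specific membrane antigen (chromosome 11, 49145092 to 49208602), had 14357 counts in LNCaP and 16 in PC-3, 907-fold (558 to 1587) higher in LNCaP. STEAP1 and STEAP2, of a family of membrane metalloreductases, were 18.3-fold (15.9 to 21.1) and 38-fold (34.6 to 41.9) higher in LNCaP. HPN, a membrane serine protease gene, had 4117 counts against 1. On the PC-3 side stood antigens that many other epithelia also carry. CEACAM5, the carcinoembryonic antigen gene (chromosome 19, 41708626 to 41730519), had 0 counts in LNCaP and 4059 in PC-3 (at least 1338-fold higher). PSCA, prostate stem cell antigen, was 12.9-fold (9.91 to 17.1) higher (59 and 771). Of 14 antigens 8 were higher in LNCaP and 5 in PC-3.

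KRT8 and KRT18 were expressed at like levels in either line, and most other measured members of the keratin list were higher in PC-3. This pair of keratins of luminal cells had 9729 and 7159 counts (KRT8 and KRT18) in LNCaP and 13605 and 8733 in PC-3, within 2-fold. KRT7 (chromosome 12, 52233243 to 52255853) had 0 counts in LNCaP and 10781 in PC-3 (at least 3555-fold higher), although an antisense gene overlaps it and the libraries did not keep strand. KRT19 was 129-fold (111 to 151) higher in PC-3 (170 and 22213 counts), and KRT15, a basal keratin, had 6 and 3032. KRT81, a hair keratin with a near-identical neighbour KRT86, had 2 and 14416. Of 8 measured members of the list, which does not hold every keratin, 5 were higher in PC-3 and 1 in LNCaP. The latter was KRT14 with 48 and 5 counts.

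Cell junction genes went both ways, with 2 members at 10-fold or more on the LNCaP side and 2 on the PC-3 side. CTNNA1 encodes alpha-catenin, which ties E-cadherin to actin (chromosome 5, 138753425 to 138935034). It had 7288 counts in LNCaP and 1 in PC-3, 7367-fold (1322 to 291037) higher in LNCaP. Its partners were expressed in either line. E-cadherin (CDH1) had 12594 counts in LNCaP and 5959 in PC-3, beta-catenin (CTNNB1) 4817 and 3923, and p120-catenin (CTNND1) 6581 and 4938. SIL1, which lies next to CTNNA1 on the chromosome and encodes an exchange factor for the chaperone of the endoplasmic reticulum, had 994 and 57 counts and was 17.6-fold (13.5 to 23.4) higher in LNCaP. Desmoplakin (DSP), which anchors keratin filaments at desmosomes, was 3.68-fold (3.54 to 3.83) higher in LNCaP with 11755 and 3231 counts. On the PC-3 side, CLDN1, a tight junction claudin, had 0 counts in LNCaP and 922 in PC-3. Of 30 members 12 were higher in LNCaP and 8 in PC-3, with a median log2 fold of 0.37, and in the cocultures 9 and 9 were.

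**Figure D2:**
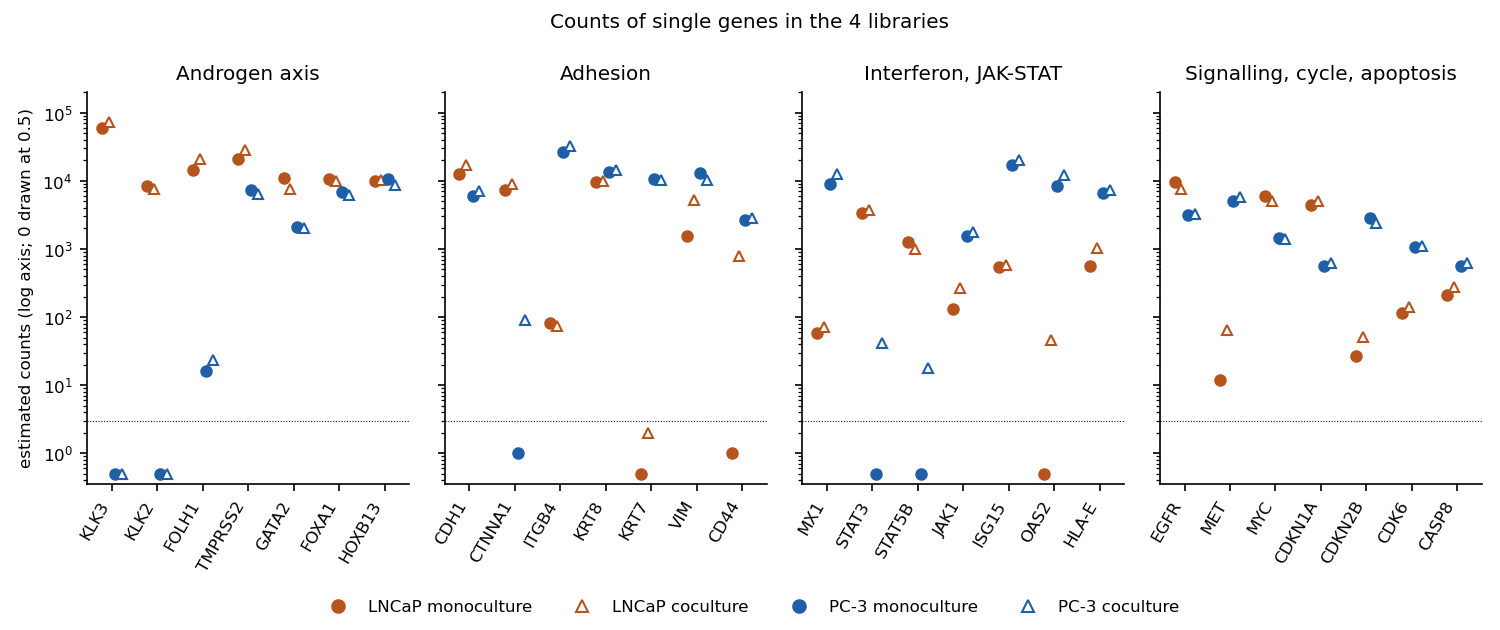
Estimated counts, on a log axis, of 28 genes in the 4 libraries, with circles for monocultures, triangles for cocultures, orange for LNCaP and blue for PC-3, and 0 drawn at 0.5. The dotted line marks 3 counts. KLK3, KLK2, CTNNA1 and STAT3 are under it in the PC-3 monoculture, while KRT7, CD44 and OAS2 are under it in the LNCaP monoculture.

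Mesenchymal and motility genes were the reverse of the androgen-regulated group. Of 28 measured, 24 were higher in PC-3 and 3 in LNCaP, with a median log2 fold of -6.57 (-6.48 with genes at 0 in LNCaP set at their bound). CD44, a hyaluronan receptor (chromosome 11, 35139171 to 35232402), had 1 count in LNCaP and 2649 in PC-3, 2620-fold (470 to 103540) higher in PC-3. PLAU, the urokinase protease that activates plasminogen to plasmin, had 0 and 5737 counts (at least 1892-fold higher). VIM, the intermediate filament of mesenchymal cells, was present in either library, with 1559 and 12860 counts, 8.16-fold (7.74 to 8.61) higher in PC-3. FSCN1, which bundles actin in protrusions, was 15.1-fold (14 to 16.2) higher. N-cadherin (CDH2) had 0 and 262 counts and the repressor gene ZEB1 1 and 234. The 3 members on the LNCaP side were FN1, which encodes fibronectin (14219 and 5276 counts), TAGLN (184 and 39) and SNAI1 (62 and 20).

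Fibroblast markers were checked beside this group, because many mesenchymal genes are shared with fibroblasts. Some of them were near 0 in these monocultures, and others were not. COL1A2, a chain of type I collagen, had 0 counts in LNCaP and 1 in PC-3, MMP2 had 0 and 0, DCN 0 and 14, and LUM 0 and 6. The same genes had 3577, 1779, 399 and 579 counts in the LNCaP coculture. Of the 23 fibroblast markers 12 reached 1 CPM in a monoculture, 11 of them higher in PC-3 and 1 in LNCaP. At 10-fold or more there were 8 in PC-3 and 1 in LNCaP. The list summed to 436 CPM in LNCaP and 2397 in PC-3. Collagen chains were among the members with counts in either library. COL6A1 had 4319 and 12677 counts, COL5A2 376 and 7919, and COL1A1 425 and 3104.

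Genes that attach cells to the basement membrane were higher in PC-3. No measured integrin of the list was higher in LNCaP by 2-fold: 13 of 15 were higher in PC-3, and ITGAV and ITGB5 lay within 2-fold. ITGB4, the beta subunit of hemidesmosomes (chromosome 17, 75721459 to 75757818), had 81 counts in LNCaP and 26399 in PC-3, 322-fold (259 to 406) higher in PC-3. Its partner ITGA6 was 4.97-fold (4.6 to 5.38) higher (758 and 3809 counts), and ITGA3, a laminin receptor subunit, 66.5-fold (56.7 to 78.4) higher (154 and 10347). ITGB1, which pairs with many alpha subunits, was high in either library, with 5131 and 18595 counts. Laminin chains of the basement membrane were among their ligands higher in PC-3. LAMB3 had 63 counts in LNCaP and 3777 in PC-3, and LAMA3 773 and 2968. LAMC1, the gamma chain of other laminins, was 3.1-fold (2.94 to 3.26) higher in LNCaP. Of 17 laminin and basement membrane genes 14 were higher in PC-3 and 2 in LNCaP.

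Basal epithelial markers followed the integrins. Of 12 measured, 10 were higher in PC-3, while KRT14 and EGFR were higher in LNCaP. TP63, the defining basal transcription factor, was low, with 0 counts in LNCaP and 52 in PC-3, and KRT5 was not measured here. SOX9, a factor of basal and progenitor cells, had 176 and 5158 counts, and COL17A1, the hemidesmosomal collagen, 5 and 376.

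Matrix proteases and their inhibitors were mainly PC-3 transcripts, with ADAMTS1 as the large exception. Of 26 measured 18 were higher in PC-3 and 6 in LNCaP. MMP14, a membrane-bound collagenase, had 1 count in LNCaP and 2205 in PC-3, 2181-fold (391 to 86192) higher in PC-3. TIMP1, an inhibitor of the same family, had 0 and 3160 counts. ADAMTS1, which cleaves proteoglycans, had 24984 counts in LNCaP and 638 in PC-3, 39.6-fold (36.6 to 42.9) higher in LNCaP.

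Calcium-binding and membrane-associated S100, annexin and galectin genes were mostly higher in PC-3. Of 24 measured 20 were higher in PC-3, 16 of them by 10-fold or more, and ANXA6 and LGALS8 were higher in LNCaP. S100A6 (chromosome 1, 153534599 to 153535991) had 0 counts in LNCaP and 29652 in PC-3, at least 9777-fold higher in PC-3. LGALS3, which encodes galectin-3, had 1 and 7940 counts. ANXA2, an annexin that assembles plasmin at the cell surface with S100A10, had 8 and 5297 counts, and S100A10 had 4 and 6280. LNCaP was not without annexins, since ANXA5 had 2037 and 4046 counts and ANXA4 556 and 494. Of 6 measured caveola genes 4 were higher in PC-3 and 2 in LNCaP. The coat genes CAV1 and CAV2 had 0 and 0 counts in LNCaP against 1047 and 648 in PC-3, and CAVIN1, which stabilises the coat, had 214 in LNCaP and 0 in PC-3.

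Receptor tyrosine kinases went both ways. Of 25 measured 6 were higher in LNCaP, 10 in PC-3 and 9 within 2-fold, and the median log2 fold was -0.25. EGFR, the epidermal growth factor receptor (chromosome 7, 55019017 to 55211628), had 9705 counts in LNCaP and 3204 in PC-3, 3.06-fold (2.94 to 3.19) higher in LNCaP. ERBB2 and the insulin receptor gene INSR were within 2-fold, with 3767 and 943 counts in LNCaP and 2739 and 828 in PC-3. MET, the hepatocyte growth factor receptor (chromosome 7, 116672196 to 116798377), had 12 counts in LNCaP and 4983 in PC-3, 411-fold (235 to 796) higher in PC-3. Its relative MST1R had 10 and 2549 counts, the ephrin receptor EPHA2 125 and 4364, and AXL 2 and 644. KDR, a vascular endothelial growth factor receptor known from endothelium, had 0 counts in LNCaP and 2681 in PC-3 (at least 884-fold higher). Of the 4 measured members of the endothelial marker list 3 were higher in PC-3 and 1 in LNCaP, each by 10-fold or more. The list summed to 12.4 CPM in LNCaP and 262 CPM in PC-3. VWF had 171 and 0 counts, PECAM1 0 and 806, and TEK 0 and 0.

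Secreted growth factors were mostly higher in PC-3. Of 23 measured 18 were higher in PC-3 and 2 in LNCaP (median log2 fold -4.02). Several EGFR ligands were on the side opposite to their receptor. AREG had 1 count in LNCaP and 646 in PC-3, TGFA 63 and 2097, and HBEGF 67 and 540. All 3 transforming growth factor beta genes were higher in PC-3, and TGFB2, with 4 and 1316 counts, was 325-fold (127 to 1196) higher. VEGFA, the angiogenic ligand, was 4.75-fold (4.59 to 4.92) higher in LNCaP (18518 and 3939 counts), whereas VEGFC, its lymphatic relative, had 0 and 773. GDF15, a stress cytokine, was among the 10 genes with the most counts in each library, not divided by gene length, with 59086 and 46868.

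Inflammatory cytokines and NF-kB target genes were mostly higher in PC-3, while genes of the factor itself were within 2-fold. Of 25 measured 17 were higher in PC-3 and 1, IL32, in LNCaP (median log2 fold -3.15, or -2.79 with genes at 0 set at their bound). NFKB1 and NFKB2 had 559 and 1121 counts in LNCaP and 497 and 714 in PC-3, within 2-fold. ICAM1, an adhesion receptor for leukocytes (chromosome 19, 10271120 to 10286615), had 5 and 2021 counts, 400-fold (171 to 1233) higher in PC-3. LCN2, an iron-scavenging secreted protein, had 1 and 956 counts and IL18 0 and 210. The neutrophil chemokine CXCL8, or interleukin-8, had 1 count in LNCaP and 293 in PC-3, 290-fold (51.6 to 11487) higher.

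The chemokine genes that sit together on chromosome 4 are shown with the bases before their starts, because 6 of them were at 3 counts or fewer in LNCaP and measured in PC-3. In PC-3, CXCL8 had 293 counts, CXCL6 72, CXCL1 39, CXCL2 25, CXCL3 21 and CXCL5 16. Apart from CXCL8 these counts were low. Capitals mark a match to GGANNTTCC, a short form of the site bound by NF-kB (either strand). The first sequence is the 250 bases before ICAM1 (chr19:10270870-10271119, plus strand), and the others are the last 100 bases before each chemokine start, 5′ to 3′ in the direction of the gene (RefSeq GRCh38.p14).
ICAM1: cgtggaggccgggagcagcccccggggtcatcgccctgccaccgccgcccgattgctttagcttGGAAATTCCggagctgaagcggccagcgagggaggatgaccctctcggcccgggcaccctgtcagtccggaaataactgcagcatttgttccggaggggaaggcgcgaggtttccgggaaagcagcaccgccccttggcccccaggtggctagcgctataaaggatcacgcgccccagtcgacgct
CXCL8: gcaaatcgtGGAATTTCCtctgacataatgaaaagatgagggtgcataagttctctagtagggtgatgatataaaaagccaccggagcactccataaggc
CXCL6: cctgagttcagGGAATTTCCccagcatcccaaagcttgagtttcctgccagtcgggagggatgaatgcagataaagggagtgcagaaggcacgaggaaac
CXCL1: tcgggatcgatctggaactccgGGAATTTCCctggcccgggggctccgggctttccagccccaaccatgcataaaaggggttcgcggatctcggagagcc
CXCL5: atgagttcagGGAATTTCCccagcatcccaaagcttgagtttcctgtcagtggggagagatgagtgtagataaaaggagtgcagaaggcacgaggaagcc
CXCL3: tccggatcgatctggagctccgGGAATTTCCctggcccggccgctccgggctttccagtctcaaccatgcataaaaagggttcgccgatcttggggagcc
CXCL2: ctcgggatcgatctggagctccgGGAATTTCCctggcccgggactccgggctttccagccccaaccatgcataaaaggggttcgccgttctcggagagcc
The chemokine stretches lie at chr4:73740469-73740568 for CXCL8, chr4:73836578-73836677 for CXCL6 and chr4:73869293-73869392 for CXCL1 on the plus strand, and at chr4:73998678-73998777 for CXCL5, chr4:74038690-74038789 for CXCL3 and chr4:74099196-74099295 for CXCL2 on the minus strand. Each of the 6 carries the letters GGAATTTCC, starting between 77 and 91 bases before the start, and ICAM1 carries GGAAATTCC at 186 bases. CXCL1, CXCL2 and CXCL3 are near-identical copies, as their promoters show, so their reads may be misassigned among them. The motif was in 12 of 20 promoters of this list, which was made of known targets, and in 3.84% of all counted genes. It was in 4.11% of promoters of PC-3-higher genes and 3.47% of those of LNCaP-higher genes. ICAM1 was chosen as the list member with the most counts among those with the motif, and the chemokines after their values were seen.

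Interferon-stimulated genes were higher in PC-3 almost without exception. Of 31 measured 30 were higher in PC-3, 24 by 10-fold or more, and 0 in LNCaP (median log2 fold -4.90). The exception was HERC5, with 100 and 155 counts and 1.53-fold (1.18 to 1.99) higher in PC-3. OAS2, which senses double-stranded RNA (chromosome 12, 112978519 to 113011723), had 0 counts in LNCaP and 8285 in PC-3, at least 2732-fold higher. ISG15, a ubiquitin-like modifier, was expressed in either library, with 544 and 17033 counts, 31-fold (28.4 to 33.8) higher in PC-3. The antiviral GTPase MX1 was 152-fold (118 to 200) higher (59 and 9091 counts) and IFI44L had 4 and 4783 counts. The list summed to 411 CPM in LNCaP and 8218 CPM in PC-3.

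The genes of the JAK-STAT pathway, which carries interferon and cytokine signals from receptors to the nucleus, went both ways. JAK1, the kinase shared by interferon receptors (chromosome 1, 64833229 to 65067746), had 130 counts in LNCaP and 1560 in PC-3, 11.9-fold (9.92 to 14.3) higher in PC-3. STAT2 and IRF9, parts of the interferon-activated complex, were 3.53-fold (3.29 to 3.78) and 25.9-fold (21.3 to 31.9) higher in PC-3. The interferon receptor genes IFNAR1 and IFNAR2 were within 2-fold, with 1474 and 421 counts in LNCaP and 2022 and 385 in PC-3. STAT3, STAT5A and STAT5B went the other way. STAT3, which carries interleukin-6 signals (chromosome 17, 42313324 to 42388442), had 3422 counts in LNCaP and 0 in PC-3 and was at least 1153-fold higher in LNCaP. STAT5B had 1284 and 0 counts and STAT5A 129 and 0. SOCS3, a feedback inhibitor that STAT3 is known to induce, had 2 counts in LNCaP and 510 in PC-3. STAT6, which carries interleukin-4 signals, was 104-fold (60.6 to 196) higher in PC-3 (13 and 1366 counts). Over the 26 genes 5 were higher in LNCaP and 14 in PC-3.

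Antigen presentation genes shared the direction of the interferon group at smaller size. Of 18 measured 12 were higher in PC-3 and 0 in LNCaP (median log2 fold -1.21). HLA-E had 567 and 6603 counts, 11.5-fold (10.6 to 12.6) higher in PC-3, and B2M, the common light chain, 4145 and 19268, 4.6-fold (4.45 to 4.76) higher. HLA-B was within 2-fold (2959 and 4945 counts), and class I genes are similar enough that reads can be misassigned among them. The immunoproteasome subunits PSMB8 and PSMB9 had 28 and 8 counts in LNCaP and 948 and 242 in PC-3.

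Cell cycle regulators and related genes gave values on either side. CDKN1A, which encodes p21, was 8.01-fold (7.34 to 8.76) higher in LNCaP (4495 and 567 counts). BTG2, an antiproliferative gene, was 10.6-fold (8.67 to 13.1) higher and MDM2, a ubiquitin ligase gene, 2.24-fold (2.1 to 2.39) higher in LNCaP. CDKN2B and CDKN2A, neighbours that block CDK4 and CDK6, had 27 and 443 counts in LNCaP and 2806 and 1838 in PC-3. CDK6 itself had 115 and 1060, and CDK4 2025 and 1379. Of 22 measured G1 cyclins and kinases 4 were higher in LNCaP and 4 in PC-3, with a median log2 fold of 0.32. A different list, of 26 measured cell cycle arrest and stress genes, had 8 higher in LNCaP and 2 in PC-3, with a median log2 fold of 0.72. A separate list, of PI3K pathway and tumour suppressor genes, had 7 of 30 higher in LNCaP, 6 in PC-3 and a median of 0.18.

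DNA repair and proliferation genes were mostly within 2-fold. The mismatch repair gene MSH6 had 816 and 902 counts. Of 25 repair genes 7 were higher in LNCaP and 1, by 10-fold or more, in PC-3. RAD50, of the double-strand break complex, was 4.86-fold (4.23 to 5.6) higher in LNCaP. In the cocultures 3 repair genes were higher in LNCaP and 2 in PC-3, and the median log2 fold was 0.12 against 0.50 in the monocultures. Of 32 proliferation genes 8 were higher in LNCaP, 0 in PC-3 and 24 within 2-fold (median log2 fold 0.56). MKI67, the usual proliferation marker, had 1853 and 1316 counts, and MCM2, part of the replicative helicase, was 2.6-fold (2.41 to 2.82) higher in LNCaP. For the proliferation genes the median in the cocultures was -0.01. MYC, a growth-promoting factor, was 4.16-fold (3.93 to 4.41) higher in LNCaP (5924 and 1438 counts). Among apoptosis regulators 8 of 24 were higher in PC-3, including the death protease gene CASP8 (214 and 569 counts) and the survival gene BCL2L1 (1951 and 5305), and BCL2 and BBC3 were higher in LNCaP.

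**Figure D3:**
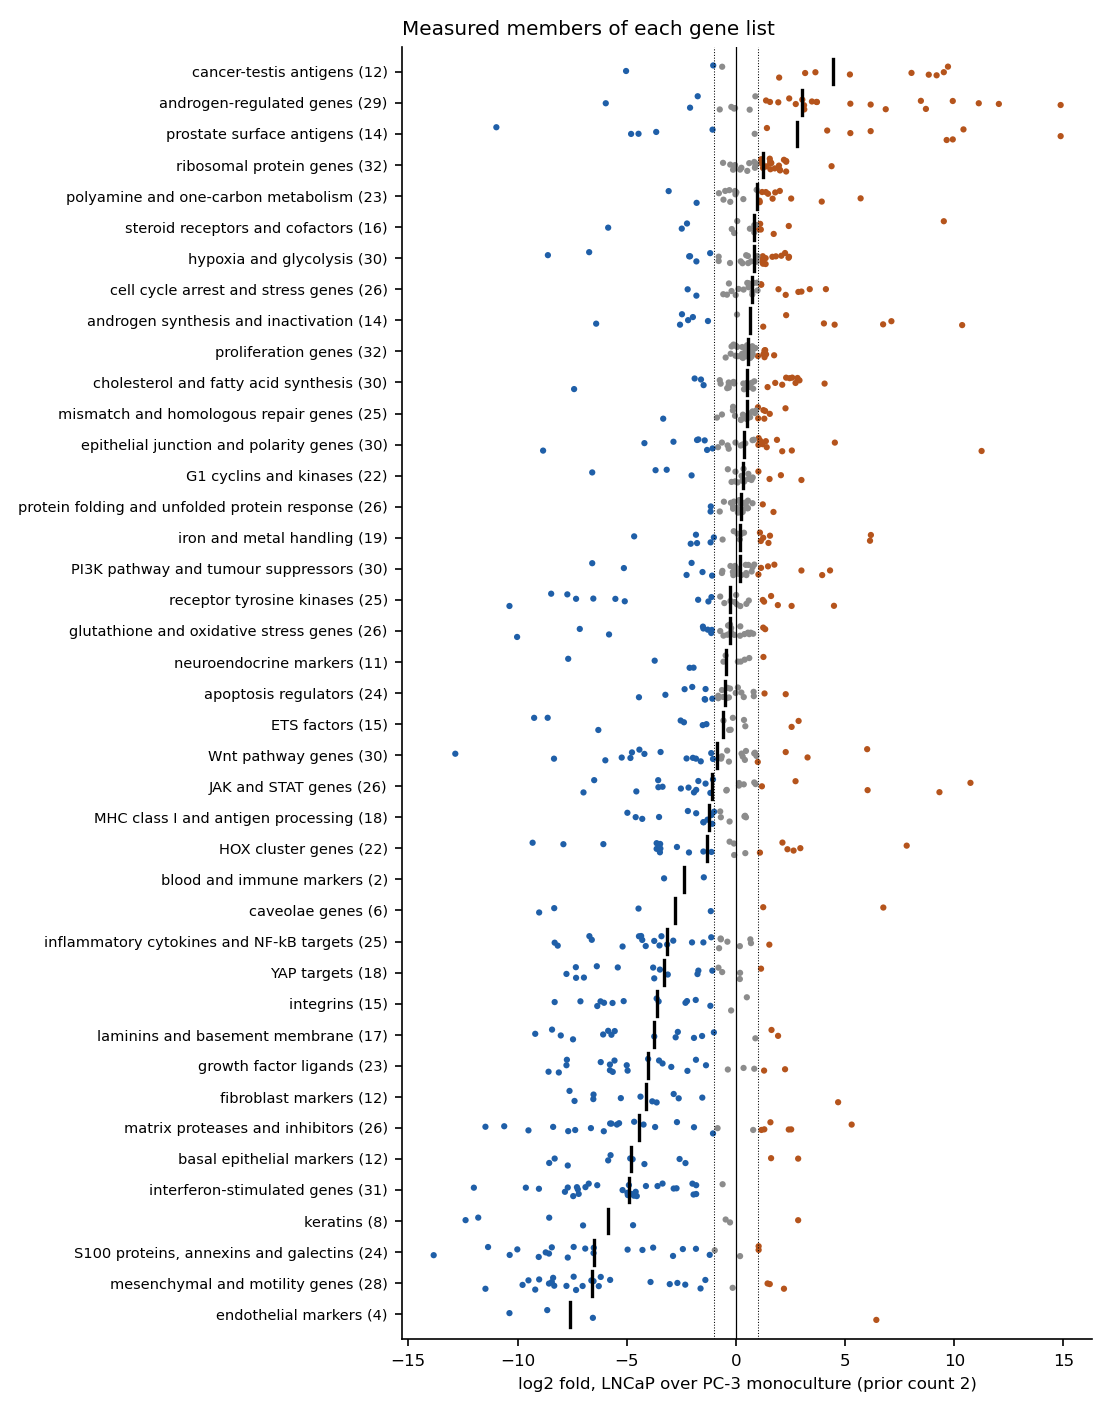
Log2 fold (LNCaP over PC-3 monoculture, prior count 2) of each measured member of the 41 gene lists, 1 point per gene, with the number measured in brackets, the list median as a black bar, and orange or blue for genes at least 2-fold higher in LNCaP or PC-3. Lists are ordered by median, from 4.43 for cancer-testis antigens to -7.59 for the 4 endothelial markers.

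Metabolic lists had members on either side. Fatty acid synthase (FASN, chromosome 17, 82078338 to 82098236) was at 63153 counts against 9067, 7.04-fold (6.89 to 7.2) higher in LNCaP, and ACLY, which supplies its acetyl-CoA, was 6-fold (5.79 to 6.23) higher. SQLE and MVD, enzymes of cholesterol synthesis, were higher in PC-3 (735 and 414 counts in LNCaP, 2756 and 1269 in PC-3). Over the whole list 10 of 30 were higher in LNCaP, 4 in PC-3 and 16 within 2-fold. Among glycolytic enzymes, glucose-6-phosphate isomerase (GPI) was 5.39-fold (5.25 to 5.53) and GAPDH 2.36-fold (2.33 to 2.39) higher in LNCaP, PKM, PGK1, ENO1 and LDHA were within 2-fold, and HK1 was 2.26-fold (2.16 to 2.37) higher in PC-3. The hypoxia-responsive secreted genes ANGPTL4 and ADM were on the other side, at 20 and 22 counts in LNCaP and 8687 and 2563 in PC-3, as was the glucose transporter SLC2A1 (3582 and 16018). Of 30 hypoxia and glycolysis genes 12 were higher in LNCaP, 6 in PC-3 and 12 within 2-fold.

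Polyamine and one-carbon genes were more often higher in LNCaP, though polyamine metabolism, which is abundant in prostate epithelium, had members on either side. AMD1, which makes the aminopropyl donor, was 5.77-fold (5.59 to 5.96) higher in LNCaP (25585 and 4483 counts), and ODC1, which makes putrescine, 3.48-fold (3.38 to 3.58) higher in PC-3 (6520 and 22929). Of 23 polyamine and one-carbon genes 11 were higher in LNCaP and 2 in PC-3. The zinc transporter SLC30A4 was 71.4-fold (60.5 to 84.9) higher in LNCaP (10030 and 142 counts). Of 19 iron and metal genes 7 were higher in LNCaP, 6 in PC-3 and 6 within 2-fold. The ferritin heavy chain FTH1 had the most counts of any gene in the PC-3 library, not divided by length. It had 31549 counts in LNCaP and 133528 in PC-3, 4.19-fold (4.14 to 4.24) higher in PC-3. GSTP1, a glutathione transferase (chromosome 11, 67583812 to 67586653), had 0 counts in LNCaP and 2102 in PC-3, at least 693-fold higher in PC-3. Of 26 glutathione and oxidative stress genes 8 were higher in PC-3, 2 in LNCaP and 16 within 2-fold. Unfolded protein response genes mostly did not reach 2-fold, with 22 of 26 within 2-fold.

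Ribosomal protein genes were higher in LNCaP in 19 of 32 cases and in PC-3 in 0 (median log2 fold 1.22). RPS12 had 7285 and 1491 counts, 4.94-fold (4.67 to 5.23) higher in LNCaP, whereas RPL8 had 22638 and 27320, within 2-fold. These genes have many processed copies, so their counts depend on how shared reads were assigned. Ribosomal RNA genes took 1.46% of counts in LNCaP and 0.751% in PC-3, and the part of this in the ribosomal protein values was not tested. RPL22L1, a paralogue of RPL22, stood apart at 21.1-fold (17.7 to 25.4) higher in LNCaP (2696 and 129 counts), while RPL22 had 4448 and 4673.

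Developmental and lineage factors of 1 family could be higher in different lines. ETV1, an ETS factor rearranged in LNCaP cells, was 7.35-fold (6.78 to 7.98) higher in LNCaP (4916 and 676 counts), and its relatives ETV4 and ETV5 had 3 and 1 counts in LNCaP and 3050 and 1190 in PC-3. HOX genes divided largely by cluster. HOXC4, HOXC5, HOXC6, HOXC9, HOXC10 and HOXC12 were the 6 members higher in LNCaP, and 12 of 22 measured, among them 5 HOXA and 5 HOXB genes, were higher in PC-3 together with HOXD8 and HOXC8, the latter with 2 and 16 counts. HOXA13 had 2 and 2577 counts and HOXC12 453 and 0. DKK1, a secreted inhibitor of Wnt receptors (chromosome 10, 52314281 to 52317657), had 0 counts in LNCaP and 14935 in PC-3, at least 4925-fold higher in PC-3. Of 30 Wnt pathway genes 15 were higher in PC-3 and 4 in LNCaP. YAP1 was within 2-fold (4091 and 3621 counts), while its relative WWTR1, or TAZ, was 129-fold (97.5 to 176) higher in PC-3 (48 and 6278) and the YAP target CCN2 214-fold (97.9 to 583) higher. Of 18 genes of that list 13 were higher in PC-3.

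The neuroendocrine list was checked against the suffix in the PC-3 title and had members on either side. Of 11 measured, 4 were higher in PC-3, 1 in LNCaP and 6 within 2-fold, and 2 of those in PC-3 were at 10-fold or more. SYP, a synaptic vesicle marker, had 34 counts in LNCaP and 52 in PC-3, and NCAM1 7 and 0. FOXA2, a factor reported in neuroendocrine prostate cancer, had 0 and 413 counts (at least 136-fold higher in PC-3), and TUBB3 was 3.84-fold (3.51 to 4.21) higher. CHGA, CHGB and INSM1 were not measured here.

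Cancer-testis antigens, which are usually silent outside germ cells, were more often higher in LNCaP, although the summed level of the list was 826 CPM in LNCaP and 714 CPM in PC-3. Of 12 measured 9 were higher in LNCaP and 2 in PC-3 (median log2 fold 4.43, or 3.79 with genes at 0 set at their bound). MAGEA3 had 2499 counts in LNCaP and 1 in PC-3 and MAGEA6, a near-identical copy, 1473 and 0. MAGED1 and MAGED4, of the wider MAGE family rather than typical cancer-testis antigens, ran the other way. They had 3412 and 41 counts in LNCaP and 7094 and 1415 in PC-3, and are part of the summed level above.

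Outside these lists, the extreme log2 folds were taken over genes whose higher library held 100 counts or more and 5 CPM or more. The 10 on the LNCaP side included KLK3, KLK2, KLK4, CTNNA1 and STAT3, and also SYT4, a vesicle protein of secretory cells (8838 and 2 counts), the secreted matrix protein gene SPON2 (22378 and 10) and MME, the peptidase neprilysin (15382 and 7). PPFIA2, which encodes a scaffold of the liprin family, and the adrenergic receptor gene ADRA2A had 3846 and 3394 counts in LNCaP and 0 in PC-3. The lowest was MSMP, a secreted microseminoprotein first described in PC-3 cells (chromosome 9, 35752990 to 35754276), with 0 counts in LNCaP and 44821 in PC-3, at least 14779-fold higher in PC-3. S100A6, DKK1, KRT7, KRT81, OAS2, PLAU and LGALS3 were also among the 10, with SPTSSB, a regulator of sphingolipid synthesis (0 and 9043 counts), and the cartilage collagen gene COL2A1 (0 and 7100).

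Among genes with at least 20 CPM in each library, where neither side is near 0, the order was led by CKB and ZYX. CKB, a creatine kinase (chromosome 14, 103519667 to 103522830), had 67736 counts in LNCaP and 1217 in PC-3, 56.3-fold (53.2 to 59.6) higher in LNCaP. The protein kinase A subunit PRKACB was 26.3-fold (24.3 to 28.4) higher and the T-box factor TBX3 15.2-fold (14 to 16.5) higher in LNCaP. ZYX, a focal adhesion protein gene (chromosome 7, 143381345 to 143391111), had 794 counts in LNCaP and 30033 in PC-3, 37.4-fold (34.9 to 40.2) higher in PC-3. TNFRSF21, a death receptor gene, was 31.5-fold (28.5 to 34.8) and COL5A2 20.8-fold (18.8 to 23.2) higher in PC-3.

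Part of the genes at the floor in 1 library lay side by side on a chromosome. Of 14954 counted genes with a position, 576 had 3 counts or fewer in PC-3, and 203 of these stood next to another in 79 runs. For LNCaP these numbers were 966, 305 and 131. The longest PC-3 runs held 9 genes. The run around STAT3 covers chromosome 17 from 42101411 to 42522579 and holds DHX58, KAT2A, RAB5C, GHDC, STAT5B, STAT5A, STAT3, CAVIN1 and ATP6V0A1, each at 0 counts in PC-3. In LNCaP these had between 39 counts (DHX58, a regulator of RNA sensing) and 3422 (STAT3), and KAT2A, a histone acetyltransferase, had 2807. The next counted genes on either side were expressed in PC-3, with 66 counts for C17orf113 and 409 for NAGLU, against 143 and 725 in LNCaP. In the PC-3 coculture the 9 genes had between 2 (STAT5A) and 253 counts (CAVIN1).

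The run of the same length on chromosome X, from 152133310 to 152769689, holds MAGEA10, GABRA3, MAGEA3, MAGEA2B, CSAG1, MAGEA12, MAGEA2, CSAG3 and MAGEA6. PC-3 had 0 or 1 count for each, and LNCaP between 95 (GABRA3) and 2499 (MAGEA3), but several are near-identical copies. Its flanking genes VMA21 and CETN2 had 1736 and 881 counts in PC-3 and 1567 and 714 in LNCaP. A kallikrein run on chromosome 19 ended at KLK6, which reversed direction with 0 counts in LNCaP and 19 in PC-3. On chromosome 10, from 80271820 to 82987179, MAT1A, PRXL2A, TSPAN14 and NRG3 were at 0 in PC-3, with 1933 counts in LNCaP for TSPAN14, a tetraspanin. The longest LNCaP run, of 7 genes, was RASSF6 with the 6 chemokine genes on chromosome 4, from 73571550 to 74099195. RASSF6 had 0 and 468 counts, and the genes on either side, ANKRD17 and MTHFD2L, had 2922 and 321 in LNCaP and 3344 and 275 in PC-3. Most of these chemokines had low counts in PC-3. With at least 5 CPM required in the other library, the longest LNCaP run held 4 genes and the longest PC-3 run 9.

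**Figure D4:**
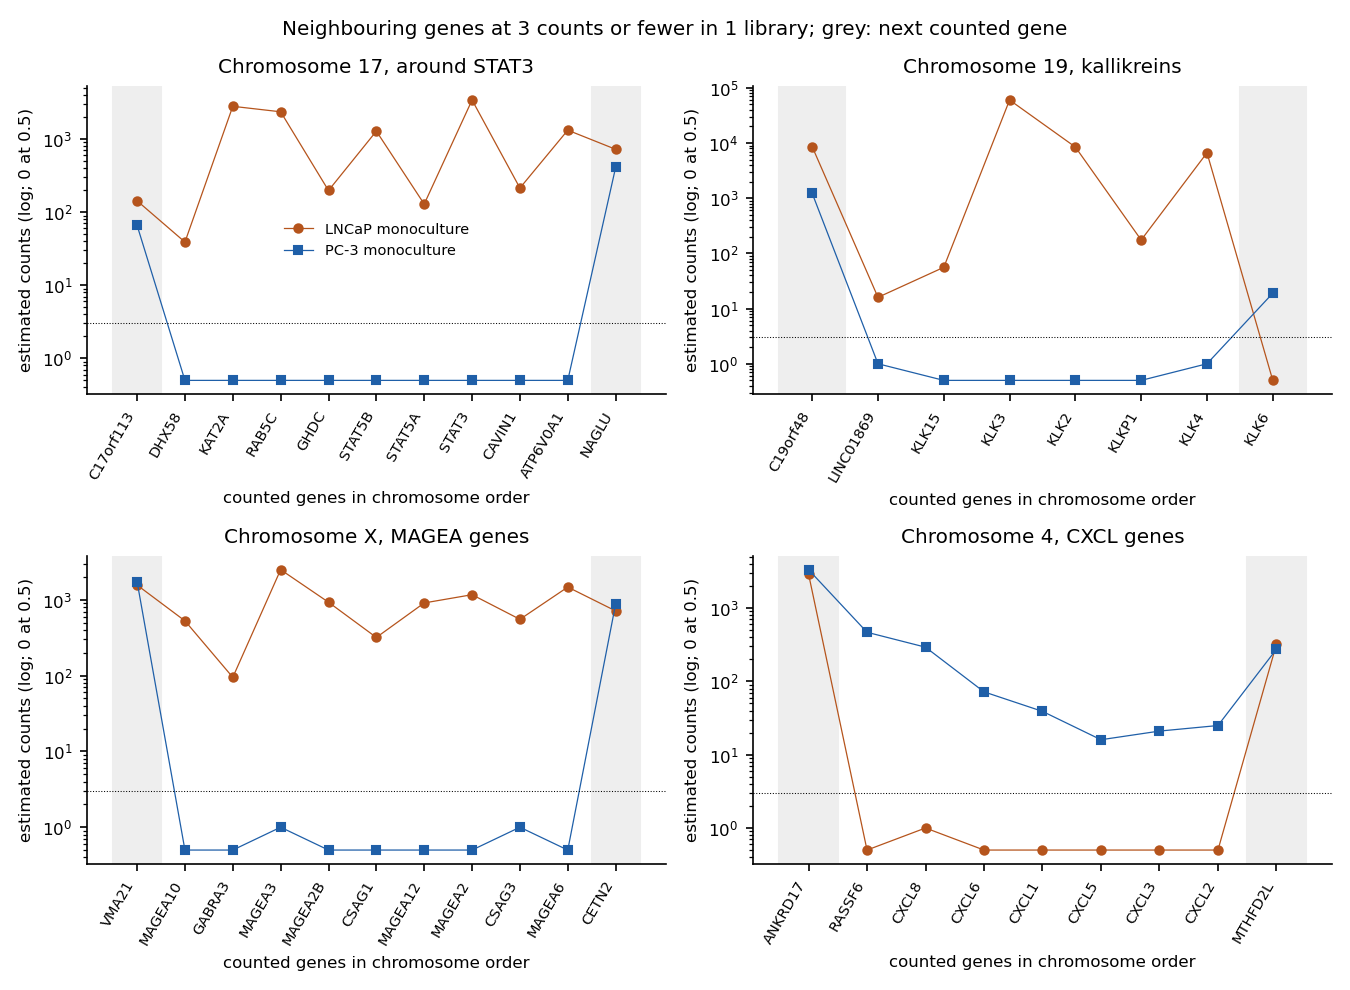
Estimated counts on a log axis (0 drawn at 0.5, dotted line at 3 counts) for counted genes in chromosome order, in orange for the LNCaP and blue for the PC-3 monoculture, with the next counted gene on each side on grey. PC-3 lies on the floor around STAT3, across the kallikreins and across the MAGEA genes, and LNCaP across the CXCL genes, while C17orf113, NAGLU, VMA21, CETN2, ANKRD17 and MTHFD2L are expressed in either library.

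Whole chromosomes differed by smaller amounts. The median log2 fold of counted genes ran from -0.52 on chromosome 8 (523 genes), -0.44 on chromosome 20 (402) and -0.39 on chromosome 2 (995) to 0.52 on chromosome 16 (686) and 0.53 on chromosome 4 (542). On chromosome 20, 9.7% of genes were higher in LNCaP and 29.6% in PC-3, and on chromosome 16 the shares were 31.3% and 10.2%.

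The cocultures gave the same contrast in separate libraries that also held fibroblasts. There 20.7% of 15155 counted genes were higher in LNCaP and 23.6% in PC-3. Of the 3354 LNCaP-higher genes of the monocultures 2580 (76.9%) were also higher in the LNCaP coculture, which is 82.4% of the 3130 found there. Of the 3578 PC-3-higher genes 3047 (85.2%) shared that direction in the cocultures, 85.1% of 3579. Across the 14784 genes counted in both pairs, Pearson's r of the log2 folds was 0.95, a description over genes that are not independent. Androgen-regulated and interferon genes had like values in the cocultures. The androgen-regulated list had a median of 2.99 in the cocultures, the interferon list -4.57 and ITGB4 a log2 fold of -8.73 against -8.30.

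Mesenchymal genes were nearer to each other between the lines in the cocultures. The coculture counts of fibroblast markers given above are for LNCaP only. Of the 12 fibroblast markers measured in the monocultures, 6 were higher in PC-3 and 1 in LNCaP in the cocultures, with a median log2 fold of -0.92. The median of the mesenchymal and motility list was -6.57 in the monocultures and -2.04 in the cocultures, and 19 rather than 24 of its members were higher in PC-3. CD44 had 1 count in the LNCaP monoculture and 776 in the LNCaP coculture, against 2649 and 2818 in the PC-3 libraries. MMP14 had 1 and 566 in the LNCaP libraries and 2205 and 2955 in the PC-3 libraries. S100A6 had 156 counts in the LNCaP and 22329 in the PC-3 coculture. VIM had 5239 and 10389 counts in the cocultures and no longer differed by 2-fold. CTNNA1 had 90 counts in the PC-3 coculture and STAT3 42, against 8977 and 3689 in the LNCaP coculture. The part of fibroblast RNA in these values was not tested.

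**Figure D5:**
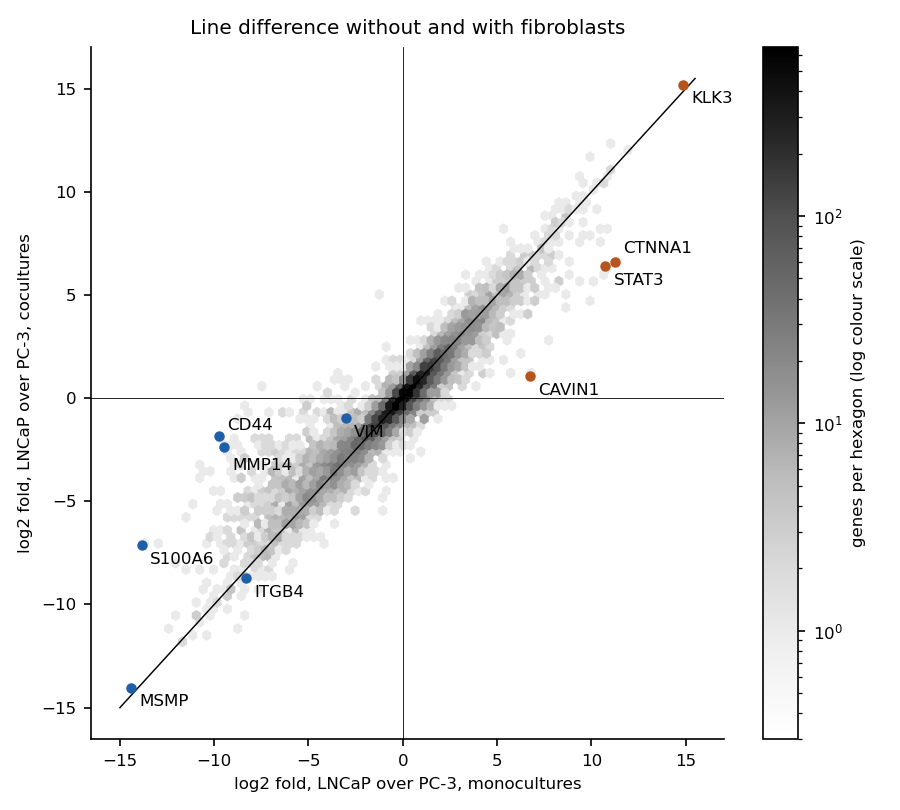
Log2 fold of LNCaP over PC-3 in the cocultures (y axis) against the monocultures (x axis) for the genes counted in both pairs, as hexagons shaded by the number of genes on a log colour scale, with the line of equality. KLK3, MSMP and ITGB4 lie close to the line, and CD44, MMP14, S100A6, CAVIN1, CTNNA1 and STAT3 lie nearer to 0 in the cocultures.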

How the data were processed

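Total RNA of 4 engineered tissue groups, 1 library each, was sequenced from TruSeq RNA v2 libraries, which do not keep strand, per the labels' protocols. The submitters' processing notes name FastQC, Partek, STAR and the build hg38, without roles or versions. The authors deposited 1 table of estimated counts per gene, unscaled, with 33.7 to 34.1% of all values in a library not whole. Reads shared by copies may have been split among them. These counts were rounded and scaled by trimmed mean of M-values factors over the 4 libraries (edgeR 4.0.16, R 4.3.3), which ran from 0.996 to 1.006. Log2 folds used a prior count of 2. Ratios carry exact conditional binomial 95% intervals (scipy 1.17.1), and a count of 0 was set to 3. Totals were 15520243 to 15865690.

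With 1 library per group no test was run. The named genes were members of the 41 lists, the 10 highest and 10 lowest folds with at least 100 counts and 5 CPM or with at least 20 CPM in each library, genes of neighbouring runs and the 10 most counted per library. The members and lists were chosen with earlier results of these data known. Flanking genes, SIL1 and RPL22 were added to the text after their values were seen. The fold calculation was tested on simulated data. Genes of chromosome Y, XIST and some other list members are not reported here. Alternatives covered scaling (DESeq2 1.42.0 size factors among them), filters, prior counts, the call and transcript length.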

Additional observations from a re-analysis of the deposited data

Results flagged for a closer look

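At 9 genes the direction between the lines was opposite in the cocultures, with at least 2-fold either way, and the difference was not tested. TNFRSF11B, a decoy receptor of bone turnover, had 0 counts in LNCaP and 26 in PC-3 as monocultures, and 176 and 87 as cocultures (log2 fold 1.01 in the cocultures). ANGPTL2, a secreted angiopoietin-like protein gene, had 0 and 19, then 79 and 30 (1.35). CERS6-AS1, an antisense gene, had 25 and 61, then 205 and 4 (5.12). C4B, of complement, and its identical copy C4B_2 had 17 and 51, then 47 and 22 (1.04 for either). STXBP5-AS1 had 5 and 17, then 29 and 9 (1.51), and FAM167A 8 and 19, then 18 and 4 (1.75). FBXO30-DT had 40 and 19, then 18 and 42 (-1.12), and POC1B-GALNT4, a readthrough gene, 80 and 38, then 30 and 73 (-1.22). Each of the 9 had 30 counts or fewer in at least 1 library, and the cocultures hold fibroblast RNA, whose part in these values was not tested.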

How the results depend on the processing

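Over 11 alternatives the genes higher in LNCaP numbered 2281 to 3943 (3354 as reported) and those higher in PC-3 2020 to 4328 (3578). The share of these genes on the LNCaP side was 45.5 to 53% (48.4%), and the median log2 fold of all genes -0.03 to 0.09. Asking for at least 1 CPM in both libraries, which removes genes near 0 in either, left 2020 genes higher in PC-3 and 3357 genes apart the same way in the cocultures. With that filter the median turned to -1.28 for androgen synthesis and inactivation, 0.05 for caveolae genes and -0.83 for cancer-testis antigens. The receptor tyrosine kinase median was 0.01 both with it and with no filter. The neuroendocrine median was 0.15 with it, 0.09 with no filter and 0.09 at 5 CPM. The other list medians kept their sign. No named gene at 2-fold or more changed direction where it was measured, but only 116 of 200 had 1 CPM in both libraries. Counted over all alternatives, 74 list medians, 59 list counts and 124 gene values moved past a set margin. Those that did not numbered 327, 843 and 1777. A trend on transcript length could be fitted for 94.9% of genes. No paired analysis was possible because each group has 1 library, and for the same reason none could be left out. Depth limits genes at 0 to 0.189 CPM, and intervals leave out variation between tissues.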
